A study of Homo sapiens with 6 samples.

Results

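The epithelial-mesenchymal transition (EMT) is followed here through 10 genes that mark it or drive it: CDH1, CDH2, VIM, EPCAM, ZEB1, ZEB2, SNAI1, SNAI2, TWIST1 and ESRP1. They were taken by symbol, as 10 of the 59008 gene symbols in a table of TPM, a measure of RNA abundance per transcript length scaled to a fixed library total, and the rule used no measured value. Of the 10, 9 averaged 1 TPM or more over the 6 libraries, and ESRP1 did not. The 6 RNA sequencing libraries came from Hey and SKOV3, established cell lines of human ovarian cancer, 1 for each of 3 states of a line. Parental cells were untreated. Polyploid giant cancer cells (PGCCs), the enlarged cells with multiplied genomes that survive the drug, had received 500 nM paclitaxel, a microtubule-stabilising drug, for 16 h and had recovered for 3 days. Daughter cells, the small cells that bud from PGCCs, had received the same treatment, recovered for 30 days and were labelled clone 1, so each line's daughter library was 1 clone. The title of the SKOV3 PGCC sample gave day 7 in place of day 3. Hey and SKOV3 were grown in different media.

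In GENCODE v44 on GRCh38, CDH1 lies on chromosome 16 (68737292 to 68835537, plus strand), EPCAM on chromosome 2 (47345158 to 47387601, plus strand), CDH2 on chromosome 18 (27932879 to 28177946, minus strand) and VIM on chromosome 10 (17228241 to 17237593, plus strand). ZEB1 lies on chromosome 10 (31318495 to 31529814, plus strand), ZEB2 on chromosome 2 (144364364 to 144521057, minus strand), SNAI1 on chromosome 20 (49982980 to 49988886, plus strand) and TWIST1 on chromosome 7 (19020991 to 19117636, minus strand). SNAI2 and ESRP1 are both on chromosome 8, at 48917598 to 48921740 on the minus strand and 94641074 to 94707466 on the plus strand. All 10 are protein-coding. The table holds 1 value per gene symbol, with no value for single transcripts.

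Epithelial cells hold together through E-cadherin, the product of CDH1, and carry the adhesion protein EPCAM on their surface. In EMT, cells lower these proteins and gain N-cadherin, made from CDH2, and the intermediate filament protein vimentin, made from VIM. ZEB1, ZEB2, SNAI1 (Snail), SNAI2 (Slug) and TWIST1 encode transcription factors known for repressing CDH1 or driving the transition, the ZEB and SNAI proteins by binding E-box sequences such as CAGGTG. ESRP1 encodes a splicing regulator that maintains the epithelial isoforms of many transcripts. Carcinoma cells, those of the ovary included, often hold both programs to some degree.

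The RefSeq promoter table for GRCh38.p14 held windows for CDH2, VIM, ZEB1 and ZEB2, and none for CDH1, EPCAM, SNAI1, TWIST1, SNAI2 and ESRP1. In those 4 genes the limma fit described further on found lower levels in SKOV3 than in Hey, so the 250 bases before a transcription start are shown for the 3 of them that had a window free of their own exons in GENCODE v44. The windows are chr18:28177131-28177380 on the minus strand for CDH2, chr10:17227991-17228240 on the plus strand for VIM and chr10:31318167-31318416 on the plus strand for ZEB1, each written 5′ to 3′ in the gene's direction. Capitals mark CAGGTG or, for the other strand, CACCTG.
CDH2: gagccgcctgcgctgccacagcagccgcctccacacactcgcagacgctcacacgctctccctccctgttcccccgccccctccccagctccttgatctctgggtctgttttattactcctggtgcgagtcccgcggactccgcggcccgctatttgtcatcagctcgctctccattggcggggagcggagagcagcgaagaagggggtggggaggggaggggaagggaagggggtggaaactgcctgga
VIM: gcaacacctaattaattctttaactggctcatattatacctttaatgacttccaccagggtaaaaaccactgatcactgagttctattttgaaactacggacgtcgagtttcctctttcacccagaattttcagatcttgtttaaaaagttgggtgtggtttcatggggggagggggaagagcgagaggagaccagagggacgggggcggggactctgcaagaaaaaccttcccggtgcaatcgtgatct
ZEB1: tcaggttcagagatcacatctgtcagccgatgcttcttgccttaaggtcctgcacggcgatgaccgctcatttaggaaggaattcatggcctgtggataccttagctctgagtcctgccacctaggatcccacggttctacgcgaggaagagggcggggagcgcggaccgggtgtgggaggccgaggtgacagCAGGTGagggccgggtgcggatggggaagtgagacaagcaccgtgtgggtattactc
The ZEB1 window held 1 such E-box, starting 57 bases before the start, and it overlapped exons of the antisense gene ZEB1-AS1. The 11 windows of the 4 genes included 7 for ZEB1, and 2 of the 11 held the E-box. The other one, chr10:31318966-31319215, again belonged to ZEB1 and held 2 matches, 242 and 85 bases before its start. Of all 35116 RefSeq promoter windows of this length, 17.5% held at least 1 match and 2.53% at least 2. The CDH2, VIM and ZEB2 windows held none of these letters. The G and C share was 66.0% in the CDH2 window, 46.0% in the VIM window and 59.2% in the ZEB1 window.

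The deposited columns summed to between 911825 and 920497 TPM, and 19920 to 25370 genes per library had a value above 0. Mitochondrial genes took between 2.64% of the total, in Hey parental cells, and 14.8%, in SKOV3 daughter cells. TPM carries no read counts, so no depth and no counting error can be given for a gene. The line labels were checked on ERBB2, a gene known to be amplified in SKOV3, which stood at 8.20 to 14.1 TPM in the 3 Hey libraries and at 1127 to 1778 TPM in the 3 SKOV3 libraries. Among markers of other cell types, the 6 blood cell markers summed to 0.210 to 1.09 TPM per library with none at 1 TPM or more, and the 6 fibroblast markers to 3.00 to 15.3 TPM. Of 6 endothelial markers, CDH5 reached 33.2 to 48.5 TPM in Hey and up to 2.56 TPM in SKOV3, and no other reached 1 TPM. The SKOV3 PGCC library stood apart in that its difference from the parental library increased with the GC content of the transcripts, as described further on.

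Both epithelial surface markers were far higher in SKOV3 than in Hey, and they ran in opposite directions along the SKOV3 series. CDH1 was listed at 0 TPM in Hey parental cells and in Hey PGCCs and at 0.0283 TPM in Hey daughter cells. In SKOV3 it stood at 1.47 TPM in parental cells, 4.35 TPM in PGCCs and 8.35 TPM in daughter cells. CDH1 was thus low throughout, and its TPM in SKOV3 daughter cells was 5.68 times that of the parental cells. On the log2(TPM + 1) scale, used for every difference below, CDH1 was higher than in SKOV3 parental cells by 1.115 in PGCCs and by 1.92 in daughter cells. The difference in PGCCs passed 2-fold in 4 of 5 other settings (a pseudocount of 0.1, median-ratio scaling, quantile normalization, mitochondrial genes left out, trend in GC content and length removed) and was 0.97 after quantile normalization.

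EPCAM showed the opposite order in SKOV3, with 68.8 TPM in parental cells, 43.6 TPM in PGCCs and 8.15 TPM in daughter cells. The daughter cells were thus 8.44 times lower than the parental cells in TPM, a difference of -2.93, while the PGCCs differed from the parental cells by -0.65. In Hey, EPCAM stood at 0.957, 1.43 and 0.369 TPM in parental cells, PGCCs and daughter cells. No Hey difference of EPCAM reached 2-fold on the log2(TPM + 1) scale, where values this low are compressed. At a pseudocount of 0.1 its daughter cells were lower than the Hey parental cells by more than 2-fold (-1.17).

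**Figure D1:**
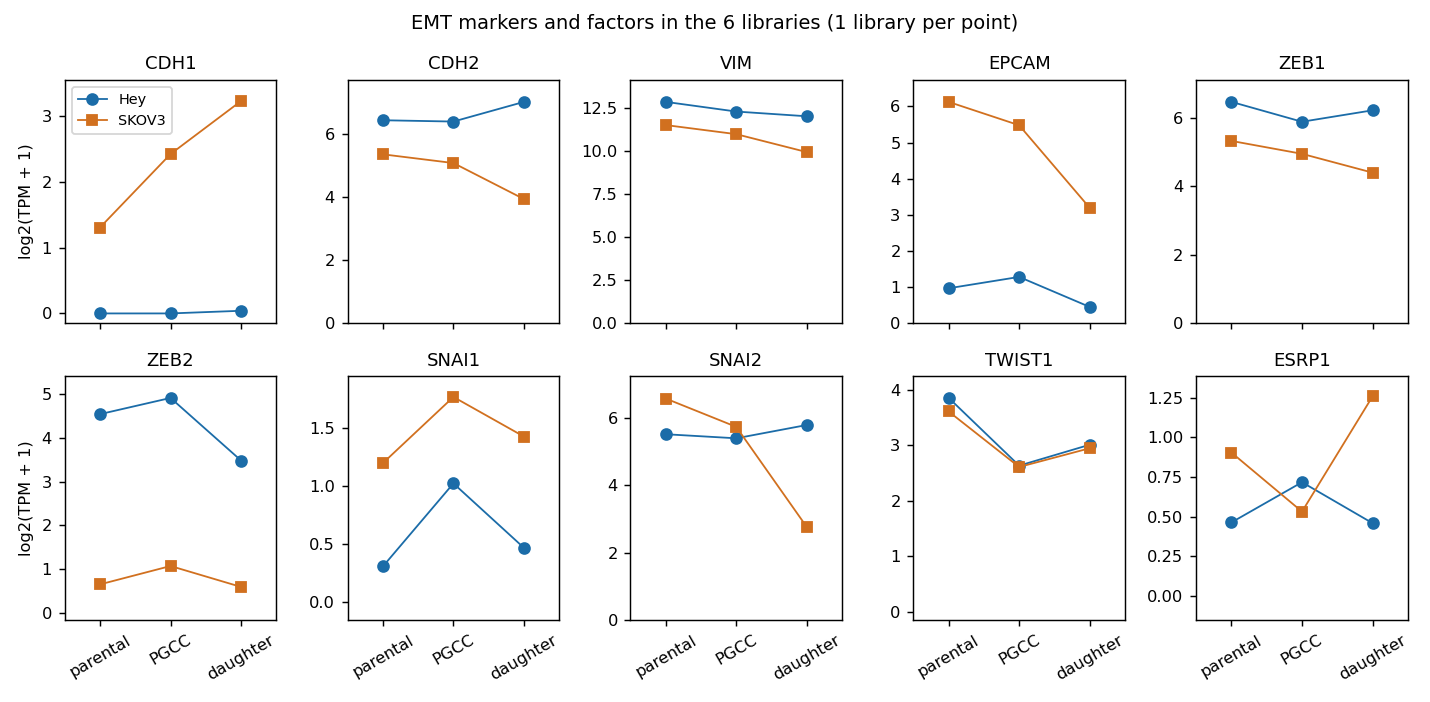
Levels of the 10 genes as log2(TPM + 1) (vertical axis, own scale per gene) in the 3 states of Hey (circles) and SKOV3 (squares), 1 library per point. CDH1 climbs from 1.47 to 8.35 TPM in SKOV3 and stays near 0 in Hey, EPCAM and SNAI2 drop in SKOV3 daughter cells, and TWIST1 is lowest in the PGCCs of both lines.

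Both mesenchymal markers were abundant in every library, and were higher in Hey than in SKOV3. VIM was among the most abundant transcripts of each library, at 7341 TPM in Hey parental cells, 4975 TPM in Hey PGCCs and 4115 TPM in Hey daughter cells. In SKOV3 it stood at 2889 TPM in parental cells, 2004 TPM in PGCCs and 973 TPM in daughter cells. In rank, VIM was number 4 of all genes in Hey parental cells and number 107 in SKOV3 daughter cells. Only the SKOV3 daughter cells passed 2-fold, at 2.97 times below the parental cells (-1.57) and 2.06 times below the PGCCs (-1.04). The latter difference kept its call in 2 of these 5 settings, which ran from -1.19 to -0.85. In Hey the differences from parental cells were -0.56 in PGCCs and -0.84 in daughter cells. After quantile normalization these were -1.30 and -1.47, both past 2-fold.

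CDH2 ran in opposite directions in the daughter cells of the lines. It stood at 85.1 TPM in Hey parental cells, 82.6 TPM in Hey PGCCs and 128 TPM in Hey daughter cells. In SKOV3 the values were 39.8 TPM in parental cells, 32.7 TPM in PGCCs and 14.3 TPM in daughter cells. The SKOV3 daughter cells were 2.79 times below the parental cells (-1.42) and 2.29 times below the PGCCs (-1.14), whereas the Hey daughter cells were above the Hey parental cells by 0.58, short of 2-fold. Between parental cells and PGCCs, CDH2 differed by -0.04 in Hey and -0.28 in SKOV3.

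Of the transcription factors, the ZEB pair differed mainly between the lines. ZEB1 stood at 86.9, 57.8 and 73.2 TPM in Hey parental cells, PGCCs and daughter cells. Its SKOV3 values were 38.9, 29.8 and 20.03 TPM in the same order, each below every Hey value, and such groups of 3 did not overlap for 44.6% of all tested genes. No within-line difference of ZEB1 reached 2-fold in the main setting, and the SKOV3 daughter cells came closest, at -0.93 from parental cells. That difference passed 2-fold after median-ratio scaling (-1.13) and after quantile normalization (-1.12). ZEB2 stood at 22.2, 28.9 and 10.1 TPM in Hey parental cells, PGCCs and daughter cells. In SKOV3 it was low, at 0.580, 1.11 and 0.517 TPM. The Hey daughter cells were 2.19 times below the parental cells (-1.06) and 2.85 times below the PGCCs (-1.43) for ZEB2. The former difference was -0.99 when mitochondrial genes were left out of the total.

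SNAI2 gave the widest difference of any member within a line. In Hey it stood at 44.6 TPM in parental cells, 40.9 TPM in PGCCs and 54.1 TPM in daughter cells. In SKOV3 it stood at 94.0 TPM in parental cells, 52.0 TPM in PGCCs and 5.76 TPM in daughter cells. The SKOV3 daughter cells were 16.3 times below the parental cells (-3.81) and 9.04 times below the PGCCs (-2.97). SNAI2 therefore ranked above Hey in SKOV3 parental cells and below Hey in SKOV3 daughter cells.

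SNAI1, the close relative of SNAI2, was scarce in all libraries. It stood at 0.239, 1.03 and 0.384 TPM in Hey parental cells, PGCCs and daughter cells, and at 1.29, 2.40 and 1.68 TPM in SKOV3. In each line the PGCC library held the highest value, by 0.71 over parental cells in Hey and 0.57 in SKOV3, neither of which reached 2-fold on this scale, which compresses values this low. At a pseudocount of 0.1 the Hey difference was 1.74, past 2-fold, and Hey daughter cells were below Hey PGCCs by more than 2-fold (-1.22). Removing the trend in GC content and length took the SKOV3 difference to -0.11.

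TWIST1 was the member whose PGCC difference passed 2-fold in both lines. It stood at 13.5 TPM in Hey parental cells, 5.20 TPM in Hey PGCCs and 7.05 TPM in Hey daughter cells. The SKOV3 values were 11.2 TPM in parental cells, 5.10 TPM in PGCCs and 6.70 TPM in daughter cells. The PGCCs were 2.59 times below the parental cells in Hey (-1.22) and 2.20 times below them in SKOV3 (-1.001). Of the 14988 genes that averaged 1 TPM or more, 0.834% were at least 2-fold lower in the PGCCs of both lines. In the daughter cells TWIST1 remained below the parental cells, by -0.85 in Hey and -0.66 in SKOV3, short of 2-fold. Because these are bulk libraries, fewer cells of a type and less RNA per cell cannot be told apart for this or any other member.

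ESRP1 was near the floor everywhere, at 0.380, 0.644 and 0.375 TPM in Hey parental cells, PGCCs and daughter cells and at 0.872, 0.446 and 1.39 TPM in SKOV3. The lines overlapped, and no difference of ESRP1 within a line reached 2-fold on the log2(TPM + 1) scale. At a pseudocount of 0.1 SKOV3 daughter cells were above SKOV3 PGCCs by 1.45, past 2-fold, and above Hey daughter cells by 1.65. ESRP2, the related splicing regulator, was listed at 0 in all 3 Hey libraries and in SKOV3 daughter cells, and stood at 2.75 TPM in SKOV3 parental cells and 4.38 TPM in SKOV3 PGCCs.

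The antisense genes VIM-AS1 and ZEB1-AS1 overlap VIM and ZEB1, and whether strand was used in the quantification is not given in the sources used here. VIM-AS1 stood at 2.83 to 22.9 TPM and ZEB1-AS1 at 5.48 to 11.8 TPM over the 6 libraries. ZEB2-AS1 was listed at 0 in 5 libraries and stood at 0.224 TPM in Hey PGCCs. Reads of such a gene and its partner may not have been separable.

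Counted over the 10 genes, 1 member passed 2-fold in each Hey comparison, 2 between SKOV3 PGCCs and parental cells and 4 or 5 in those with SKOV3 daughter cells. In Hey PGCCs 1 member (TWIST1) was at least 2-fold lower than in parental cells and 0 were higher, where 12.9% of all tested genes differed by that much in either direction, 7.67% up and 5.22% down. In Hey daughter cells 1 member (ZEB2) was lower than in parental cells and 0 were higher, beside a background of 10.0%, 6.31% up and 3.73% down. Between Hey daughter cells and Hey PGCCs, ZEB2 alone was lower and 0 were higher, beside 18.1%, 9.95% up and 8.13% down. In SKOV3 PGCCs CDH1 was higher and TWIST1 lower than in parental cells, beside 14.9%, 9.94% up and 4.96% down. These 4 counts are near the share found over all genes.

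In SKOV3 daughter cells 1 member (CDH1) was at least 2-fold higher than in parental cells and 4 were lower (CDH2, VIM, EPCAM and SNAI2), where 21.5% of all tested genes differed in either direction, 15.1% up and 6.34% down. The same 4 genes were lower than in SKOV3 PGCCs and 0 members were higher, beside 23.9% in either direction, 14.6% up and 9.25% down. The median difference of the 10 genes from parental cells was -0.79 in SKOV3 daughter cells, where that of all tested genes was 0.15, and -0.13 in Hey daughter cells, where that of all tested genes was 0.05. From parental cells through PGCCs to daughter cells of SKOV3, CDH1 was higher at each step, as were 20.1% of all tested genes. At each step 5 members (CDH2, VIM, EPCAM, ZEB1 and SNAI2) were lower, as were 11.3% of all tested genes. With the trend in GC content and length removed, the step to PGCCs was only -0.05 for CDH2 and -0.01 for ZEB1. It was -0.88 for VIM, -0.49 for EPCAM and -0.79 for SNAI2. With 1 library per condition these differences have no replicate check and no p-value. Each line's comparisons share libraries, so the counts are not independent of each other. Among all tested genes the share of calls that were upward ran from 55.0% to 70.6% over the 6 comparisons within a line and the 3 between lines, from 50.5% to 59.4% after median-ratio scaling and from 48.0% to 56.5% after quantile normalization. In SKOV3 daughter against parental cells the median of all genes shifted by -0.17 under median-ratio scaling and by -0.19 under quantile normalization. The 5 members called there kept their direction and their call under both. ZEB1 passed 2-fold downward under both (-1.13 and -1.12), as did TWIST1 under quantile normalization (-1.05).

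**Figure D2:**
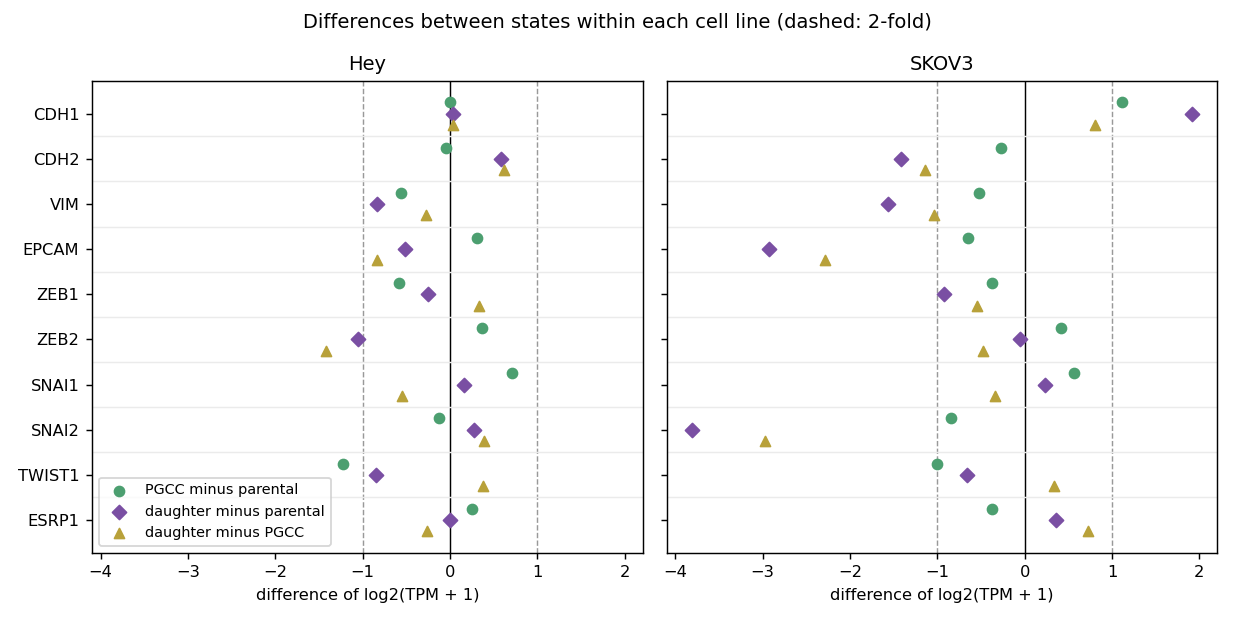
Differences of log2(TPM + 1) between states (horizontal axis) for each gene in Hey (left) and SKOV3 (right), 1 library against 1 library. Circles are PGCC minus parental, diamonds daughter minus parental and triangles daughter minus PGCC, with dashed lines at 2-fold. SNAI2 (-3.81) and EPCAM (-2.93) lie farthest out, in SKOV3 daughter cells, and TWIST1 lies at or past -1 in the PGCCs of both lines.

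A limma fit over all 6 libraries, with state and line as terms and 2 residual degrees of freedom, called 0 of the 9 members that averaged 1 TPM or more between any pair of states at an adjusted p of 0.05. Over all 14988 genes it called 3 for PGCC minus parental (0.0200%), 2 for daughter minus parental (0.0133%) and 0 for daughter minus PGCC (0.00%), with 409, 508 and 758 genes (2.73%, 3.39% and 5.06%) at an unadjusted p under 0.05. Of the members TWIST1 stood at that unadjusted level for PGCC minus parental, at -1.11 ± 0.41 (SE). For daughter minus parental VIM did so at -1.20 ± 0.38 (SE) and EPCAM at -1.72 ± 0.61 (SE), and for daughter minus PGCC EPCAM at -1.56 ± 0.61 (SE). The limma adjusted p of these values was 1 for TWIST1, VIM and the first EPCAM value and 0.908 for the second. In this fit the error of a gene combines how far the lines disagree with a spread that limma estimates over all genes. It has 2 residual of 7.33 total degrees of freedom. SNAI2, which differed between Hey and SKOV3 daughter cells, had the widest error of the members, at 0.88 (SE).

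The GC content of the transcripts moved with the SKOV3 PGCC values. Over 13468 genes with an annotated GC content, the Spearman correlation between GC content and the difference from parental cells was 0.72 in SKOV3 PGCCs and -0.05 in Hey PGCCs, given as a description across genes of 2 libraries. In SKOV3 PGCCs the median difference was -0.62 for genes under 40% GC and 0.94 for genes at 60% or more. A trend in GC content and transcript length was then removed. CDH1, at 50.1% GC, sat where this trend was 0.09, so its difference was 1.03 with the trend removed. TWIST1, at 56.5% GC, sat where the trend was 0.48, and its difference was -1.48 with the trend removed. SNAI1 and ZEB1, whose trend values were 0.68 and -0.37, differed from it by -0.11 and -0.01. The part of GC content in the other SKOV3 PGCC values was not tested beyond this.

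**Figure D3:**
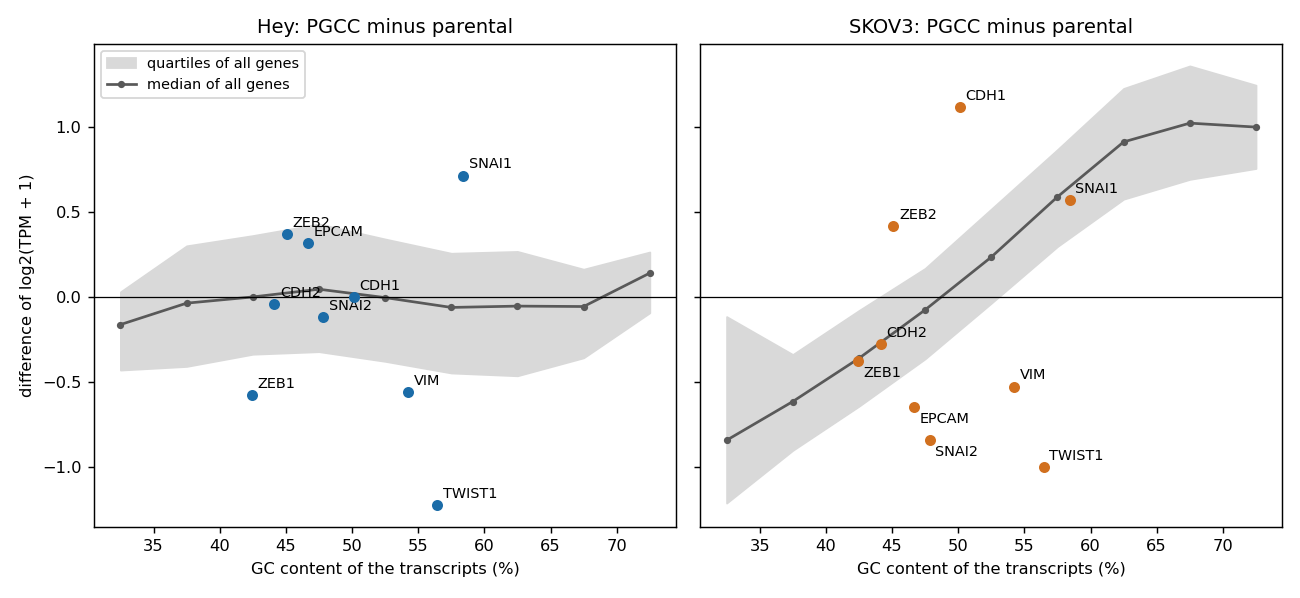
Difference of log2(TPM + 1) between PGCCs and parental cells (vertical axis) against the GC content of the transcripts (horizontal axis, %) in Hey (left) and SKOV3 (right). The line and band are the median and quartiles of all genes in bins of 5 percentage points, and the points are the members, of which in SKOV3 CDH1 and ZEB2 lie above the band, TWIST1, VIM, SNAI2 and EPCAM lie below it, and SNAI1, ZEB1 and CDH2 lie within it.

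Between the lines, the epithelial markers were higher in SKOV3, both mesenchymal markers and both ZEB genes were higher in Hey, and the other factors showed no common direction. SKOV3 was above Hey in all 3 states for CDH1 and EPCAM, and below Hey in all 3 for CDH2, VIM, ZEB1 and ZEB2. EPCAM in SKOV3 was 71.9 times its Hey level in parental cells, 30.4 times among PGCCs and 22.1 times among daughter cells. ZEB2 in Hey was 38.2, 26.02 and 19.6 times its SKOV3 level in the same order. SNAI1 in SKOV3 was above Hey in all 3 states by 0.74 to 0.96. At a pseudocount of 0.1, which compresses low values less, these differences were 2.04, 1.14 and 1.88 in parental cells, PGCCs and daughter cells, each past 2-fold, and removing the trend in GC content and length took the PGCC difference to 0.01. TWIST1 differed by -0.25, -0.02 and -0.06.

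At 2-fold, SKOV3 parental cells were higher for 3 members (CDH1, EPCAM and SNAI2) and lower for 4 (CDH2, VIM, ZEB1 and ZEB2), beside 35.7% of all tested genes that differed in either direction, 24.2% up and 11.5% down. SKOV3 PGCCs were higher for 2 (CDH1 and EPCAM) and lower for 3 (CDH2, VIM and ZEB2), beside 43.0%, 29.6% up and 13.4% down. SKOV3 daughter cells were higher for 2 (CDH1 and EPCAM) and lower for 5 (CDH2, VIM, ZEB1, ZEB2 and SNAI2), beside 41.8%, 29.5% up and 12.3% down. In all 3 states at least 2-fold were 2 members higher (CDH1 and EPCAM), beside 11.5% of all tested genes, and 3 lower (CDH2, VIM and ZEB2), beside 4.71%. SNAI2 changed sides, from 1.06 between parental cells to 0.34 between PGCCs and -3.03 between daughter cells, and its parental difference kept its call in 3 of the 5 other settings (0.74 to 1.16). CDH2 in parental cells and VIM in PGCCs each kept theirs in 4 of the 5, with the smallest differences at -0.98 and -0.77.

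In the limma fit the SKOV3 minus Hey difference over the 3 states passed an adjusted p of 0.05 for 6 of the 9 members, where it did so for 20.6% of all genes (3093 of 14988), 14.4% up and 6.27% down. EPCAM was higher in SKOV3 by 4.03 ± 0.50 (SE, 3 libraries per line), limma adjusted p = 0.00225, and CDH1 by 2.303 ± 0.52 (SE), limma adjusted p = 0.0220. ZEB2 was lower by -3.52 ± 0.39 (SE), limma adjusted p = 0.00146, and VIM by -1.58 ± 0.31 (SE), limma adjusted p = 0.0134. CDH2 was lower by -1.82 ± 0.44 (SE), limma adjusted p = 0.0270, and ZEB1 by -1.30 ± 0.32 (SE), limma adjusted p = 0.0300. SNAI1 at 0.86 ± 0.45 (SE), SNAI2 at -0.54 ± 0.72 (SE) and TWIST1 at -0.11 ± 0.33 (SE) did not pass, with limma adjusted p = 0.206, 0.615 and 0.834. The treated libraries of a line derive from its parental cells and nothing says that the cultures were independent, so these p-values measure only the spread between these libraries, and line and medium cannot be told apart.

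Leaving out a library lowered the number of members called in this fit. Without Hey PGCCs or without SKOV3 PGCCs, limma called 0 members and 0 of all genes, with 4086 and 4077 genes at an unadjusted p under 0.05. It called 3 members without Hey parental cells, 2 without Hey daughter cells, 3 without SKOV3 parental cells and 3 without SKOV3 daughter cells. EPCAM and ZEB2 were each called in 4 of the 6 reduced fits, CDH1 in 3, and CDH2, VIM and ZEB1 in 0, with limma adjusted p-values of 0.0111 to 0.104 for EPCAM, 0.0125 to 0.0849 for ZEB2, 0.0353 to 0.155 for CDH1, 0.0642 to 0.150 for CDH2, 0.0925 to 0.150 for VIM and 0.103 to 0.143 for ZEB1. The direction of these 6 genes was kept in all 6 reduced fits. These fits are not 6 separate checks. When 1 library is left out, the other line's library of that state is fitted exactly by its state term. The line difference then rests on the remaining states only. Leaving out the Hey or the SKOV3 library of a state gives the same difference, so the 6 fits hold 1 distinct difference for each of the 3 states. With all genes above 0 TPM in the fit, 0 members and 329 genes passed. Of the genes called in the full fit 69.6% were higher in SKOV3, against 52.6% after median-ratio scaling and 50.6% after quantile normalization, under both of which the same number of members (6) passed.

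**Figure D4:**
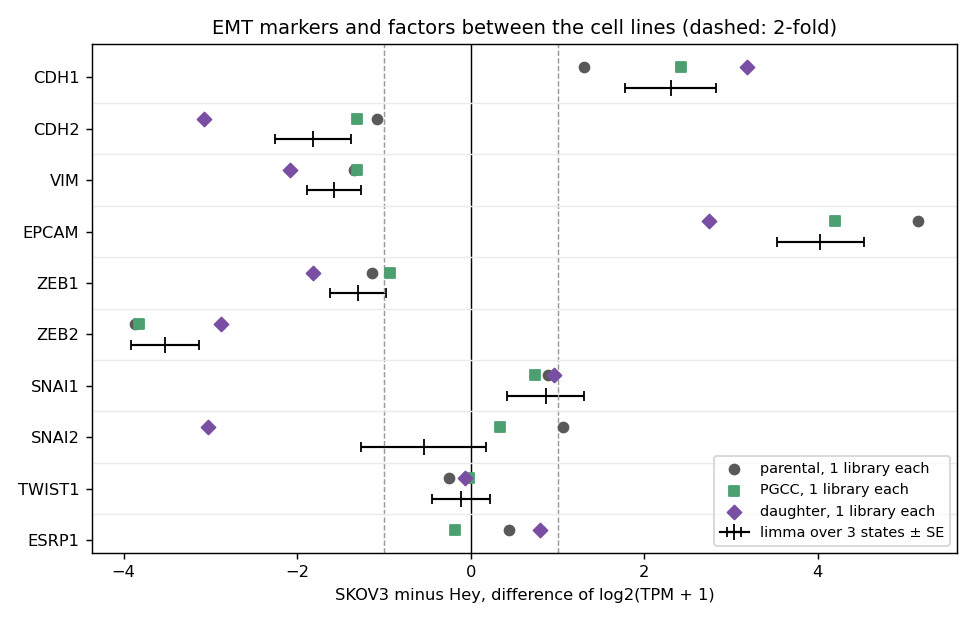
SKOV3 minus Hey as a difference of log2(TPM + 1) (horizontal axis) for each gene. Circles, squares and diamonds are parental cells, PGCCs and daughter cells, 1 library against 1, and the black mark with bars is limma's difference over the 3 states ± SE for the 9 genes tested. EPCAM and ZEB2 lie at opposite ends at 4.03 and -3.52, TWIST1 lies near 0, and SNAI2 spans from 1.06 in parental cells to -3.03 in daughter cells.

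Other genes of both programs were taken from lists of epithelial and mesenchymal genes that do not include the members. Of 44 epithelial genes 33 averaged 1 TPM or more. limma called 21 of them higher in SKOV3 and 1 lower (CLDN1, a tight junction claudin), beside 14.4% and 6.27% of all genes. Their median difference was 2.42 where all tested genes had 0.37. The higher genes included the desmosome genes JUP and DSP, the tight junction gene OCLN, the transcription factors ELF3 and OVOL2 and the keratin gene KRT19. JUP stood at 0 to 0.293 TPM in Hey and 24.5 to 128 TPM in SKOV3, and ELF3 at 0 to 0.318 TPM in Hey and 76.4 to 149 TPM in SKOV3. OVOL2 was listed at 0 in all 3 Hey libraries and stood at 5.24 to 8.46 TPM in SKOV3. GRHL2, an epithelial transcription factor, was listed at 0 in 5 libraries and stood at 0.0216 TPM in Hey PGCCs.

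Of 38 mesenchymal genes 31 were tested, and limma called 15 lower in SKOV3 and 4 higher, beside 6.27% and 14.4% of all genes. Their median difference was -1.27. The lower genes included the matrix genes FN1 and TNC, at 651 to 1568 and 125 to 239 TPM in Hey against 1.503 to 27.2 and 0.213 to 4.37 TPM in SKOV3. The smooth muscle actin gene ACTA2 was also lower, with a difference of -4.58. The 4 higher genes were S100A4, TAGLN, VCAN and COL5A1, of which S100A4 stood at 0.255 to 4.005 TPM in Hey and 304 to 4816 TPM in SKOV3. Without the Hey or without the SKOV3 PGCC library limma called 0 genes of either list, while 29 of 33 epithelial genes were still higher and 22 of 31 mesenchymal genes lower in SKOV3. Without any other library it called 17 to 21 epithelial genes higher and 8 to 14 mesenchymal genes lower, and with all genes above 0 TPM in the fit it called 7 and 7.

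**Figure D5:**
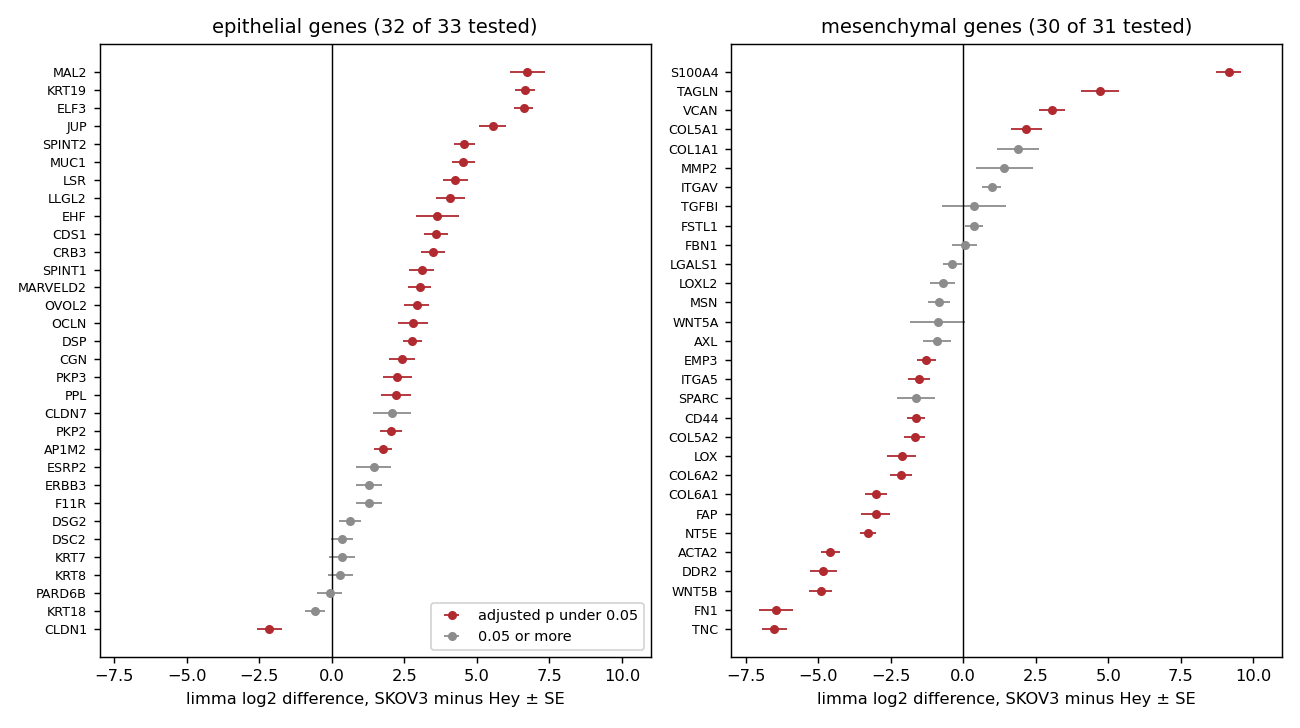
limma's SKOV3 minus Hey log2 difference over the 3 states ± SE (horizontal axis) for 32 of the 33 tested epithelial genes (left) and 30 of the 31 tested mesenchymal genes (right), with genes past an adjusted p of 0.05 in red. Most epithelial genes lie right of 0 and most mesenchymal genes left of 0, and S100A4 is the mesenchymal gene farthest to the right.

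Within the lines the same lists gave mixed counts at 2-fold. In SKOV3 PGCCs 12 epithelial genes were higher than in parental cells and 0 were lower, beside 9.94% of all tested genes that were higher. LLGL2, a cell polarity gene, went from 9.21 to 46.7 TPM and JUP from 40.03 to 128 TPM. The median GC content of these 33 genes was 56.2%, against 48.9% over all genes, and with the trend in GC content and length removed 1 of the 33 passed 2-fold. In Hey PGCCs 2 epithelial genes were higher and 0 were lower, near the 7.67% and 5.22% of all tested genes, with EHF at 12.2 against 0.0982 TPM and F11R at 22.6 against 7.84 TPM. In SKOV3 daughter cells 9 were higher and 5 lower than in parental cells, beside 15.1% and 6.34% of all tested genes, among them the membrane trafficking gene MAL2, from 93.5 to 404 TPM, and the claudin gene CLDN7, from 8.60 to 0.201 TPM. In Hey daughter cells 1 was higher and 3 were lower, beside 6.31% and 3.73%, KRT19 among the latter, which was listed at 0 there and stood at 2.47 TPM in parental cells.

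Mesenchymal genes were higher for 5 and lower for 8 of 31 in SKOV3 daughter against parental cells, beside 15.1% and 6.34% of all tested genes. SPARC, a matrix glycoprotein gene, went from 19.7 to 865 TPM, and WNT5A, a secreted signal, from 1.79 to 43.2 TPM. TGFBI went from 446 to 10.4 TPM and COL5A1 from 19.9 to 0.731 TPM, so matrix genes of the list were found on both sides. In Hey daughter cells 2 were higher and 7 lower than in parental cells, beside 6.31% and 3.73% of all tested genes, with SPARC at 591 against 196 TPM and MMP2 at 0.0249 against 9.12 TPM. SPARC was the gene of the list that was higher in the daughter cells of both lines, beside 1.19% of all tested genes, and S100A4 and COL5A1 were lower in both, beside 0.387%. In PGCCs 3 were higher and 2 lower in Hey, beside 7.67% and 5.22% of all tested genes, and 2 were higher and 1 lower in SKOV3, beside 9.94% and 4.96%. With the trend in GC content and length removed the SKOV3 count was 0 higher and 4 lower, and the median of the 31 genes went from 0.08 to -0.16. limma called 0 genes of either list between states, at 0.0200%, 0.0133% and 0.00% of all genes for the 3 contrasts.

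Of 22 other EMT transcription factors 17 were tested, and limma called 5 higher and 4 lower in SKOV3 than in Hey, beside 14.4% and 6.27% of all genes. TWIST2, the paralog of TWIST1, was lower, at 15.5 to 25.9 TPM in Hey and 1.996 to 8.80 TPM in SKOV3. The inhibitors of DNA binding ID1, ID2 and ID3 were higher in SKOV3, by 2.93, 3.49 and 3.10. Within SKOV3, PRRX1 went from 10.0 TPM in parental cells to 1.41 TPM in PGCCs and 0.330 TPM in daughter cells, and the AP-1 subunit gene FOSL1 stood at 158, 169 and 38.6 TPM in the same order. SOX9 was at least 2-fold lower in the PGCCs of both lines, as were TWIST1 and 0.834% of all tested genes. SOX9 stood at 7.20 against 16.1 TPM in Hey and, near the floor, at 0.371 against 1.89 TPM in SKOV3. The 15 cofactor and turnover genes of ZEB and SNAI proteins were all tested. Of these limma called 4 higher in SKOV3 (KDM1A, RCOR1, EZH2 and SUZ12) and 0 lower, beside 14.4% and 6.27% of all genes. Other corepressor genes of the list, among them HDAC1, HDAC2 and SIN3A, were not called.

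Among 19 adherens junction and other cadherin genes 14 were tested, and limma called CDH6, CDH13, CDH16 and the afadin gene AFDN higher in SKOV3 and CDH4 lower. CDH4 stood at 16.0, 5.77 and 37.6 TPM in Hey parental cells, PGCCs and daughter cells and was listed at 0 in all 3 SKOV3 libraries, and CDH16 was listed at 0 in Hey and stood at 19.3 to 101 TPM in SKOV3. Of 19 inducing ligands, receptors and mediators 16 were tested, of which limma called 5 higher in SKOV3 and 1 lower (TGFBR2, a TGF-β receptor). For both lists the shares over all genes were 14.4% higher and 6.27% lower. IL6 was at least 2-fold higher in the PGCCs of both lines, at 168 against 8.74 TPM in Hey and 28.8 against 10.55 TPM in SKOV3. TGFB2, a TGF-β ligand, went from 3.00 TPM in SKOV3 parental cells to 31.3 TPM in daughter cells. The 7 gene loci of the miR-200 and miR-205 microRNAs, which are known to repress ZEB1 and ZEB2, were listed at 0 in all 6 libraries. The paper describes mRNA sequencing and mature microRNAs were not measured, so this 0 does not show that the microRNAs were absent.

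Likeness to each member was measured as the root mean square (RMS) difference of log2(TPM + 1), after centring each gene on its mean over the 6 libraries, among 12170 protein-coding genes that averaged 1 TPM or more. The gene closest to CDH1 was MYH14 (RMS 0.170), followed by TLE2 and ADRA2C. CDH2 was closest to SLC22A3 (0.0722), MSRA and ADAM19, and VIM to TWIST2 (0.2405), MAP4K4 and APLP2. EPCAM was closest to SERPINB9 (0.2997), TMEM47 and RHEX. For the factors the closest genes were RPL21 (0.114), TGFBR3 and RPL35A for ZEB1, ACP7 (0.245), GPX3 and FZD8 for ZEB2, and MAFG (0.0847), SLC39A7 and SLC35A2 for SNAI1. SNAI2 was closest to IGFBP1 (0.294), EFEMP1 and KCTD14, which like it were lowest in SKOV3 daughter cells. TWIST1 was closest to PRIM2 (0.129), NOL11 and POLR2M, all 3 of them lowest in the PGCCs within each line. These distances describe 6 libraries and carry no test.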

How the data were processed

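RNA of 6 cell culture libraries was sequenced, 1 per line and state. Per the submitters' processing notes and the paper's methods, the authors trimmed reads with fastp and quantified them on the hg38 transcriptome with salmon 0.14.1, and they deposited 1 TPM value per gene symbol and library. The annotation release, bias options, strand setting and the step from transcripts to genes are not given in the sources used here. The TPM values were used as deposited, and salmon's TPM holds no counts.

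Differences of log2(TPM + 1) were computed between 2 libraries and called at 2-fold, with no test. limma 3.58.1 in R 4.3.3, with an intensity trend, was fitted to the 14988 genes that averaged 1 TPM or more, with state and line as terms and Benjamini-Hochberg adjustment over all of them. It was also run on simulated data in which both lines shared a mean profile and some genes were changed in PGCCs. That run held no difference between the lines, so it does not bear on SKOV3 minus Hey. GC content and length trends were removed by lowess (fraction 0.3) in Python 3.11.15 with statsmodels 0.14.6, numpy 2.4.6, pandas 2.3.3 and scipy 1.17.1. Figures used matplotlib 3.10.9.

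The genes and lists were chosen with earlier results of these data known. The 10 genes are named in every library. From each list up to 2 called genes with the highest and 2 with the lowest difference per comparison within a line were taken, together with genes named because limma called them or as relatives of a member, these after their values were seen. Single values of some list genes are not reported here. For each tested member the 3 protein-coding genes nearest in pattern are named. Alternatives were the pseudocount, scaling, genes in the total, filter, fold, trend, covariate, GC content and leaving out each library.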

Additional observations from a re-analysis of the deposited data

Results flagged for a closer look

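The changes of CDH2 and SNAI2 ran in opposite directions in the lines. Each compares 1 library with 1 library per line, and the difference between the lines was not tested. For CDH2, daughter minus parental was 0.58 in Hey and -1.42 in SKOV3, a SKOV3 change minus Hey change of -1.998 on the log2(TPM + 1) scale. For CDH2, daughter minus PGCC was 0.62 in Hey and -1.14 in SKOV3, which gives -1.76. For SNAI2, daughter minus parental was 0.27 in Hey and -3.81 in SKOV3, which gives -4.09. For SNAI2, daughter minus PGCC was 0.39 in Hey and -2.97 in SKOV3, which gives -3.37. In Hey none of these 4 changes reached 2-fold, so the opposite sign there is small, and in SKOV3 all 4 passed it. Both daughter libraries are labelled as 1 clone each.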

How the results depend on the processing

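Of 621 member values recomputed between 2 libraries, 561 kept their call, 60 moved and 0 turned in direction past the threshold. Without the alternative fold thresholds, 413 of 441 kept it and 28 moved. No paired analysis was possible because each condition has 1 library and the groups share only the number 1, so no block could be fitted beyond the line term. The number of members called in Hey PGCCs against parental cells (1) was 2 at a pseudocount of 0.1, at 1.5-fold and under quantile normalization, and 0 at 3-fold. For Hey daughter against parental cells (1) it was 2 at a pseudocount of 0.1, 3 at 1.5-fold, 0 at 3-fold, 2 under quantile normalization and 0 without mitochondrial genes. For Hey daughter cells against PGCCs (1) it was 3 at a pseudocount of 0.1, 3 at 1.5-fold and 0 at 3-fold. For SKOV3 PGCCs against parental cells (2) it was 4 at 1.5-fold, 0 at 3-fold and 1 under quantile normalization. At 3-fold it was 3 for SKOV3 daughter against parental cells (5), 2 for SKOV3 daughter cells against PGCCs (4), 2 between parental cells of the lines (7) and 3 between their PGCCs (5).

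In limma, all genes called for PGCC minus parental (3) and for daughter minus parental (2) were 0 at a pseudocount of 0.1, at a mean TPM of at least 5, with all genes above 0 TPM and without the line term. Leaving out 1 library gave 0 to 1 for PGCC minus parental, 0 to 105 for daughter minus parental, and 0 to 67 for daughter minus PGCC (0). The highest of the last pair came without Hey daughter cells. For SKOV3 minus Hey (3093), all genes above 0 TPM gave 329 and leaving out 1 library 0 to 2120. For its 6 members all genes above 0 TPM gave 0. In the fits without 1 library, the other line's library of that state is fitted exactly and does not enter the line difference. The causes were not tested. TPM without counts limits what can be said of CDH1, SNAI1, ESRP1, Hey EPCAM and SKOV3 ZEB2, all near or below a few TPM.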

Other observations

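Among the mesothelial markers, MSLN, which encodes the surface protein mesothelin of mesothelium and many ovarian carcinomas, was low in the daughter cells of both lines. It stood at 21.5, 23.3 and 0.386 TPM in Hey parental cells, PGCCs and daughter cells and at 33.1, 46.1 and 1.85 TPM in SKOV3. The differences of log2(TPM + 1) from parental cells were -4.02 in Hey and -3.58 in SKOV3, and 0.387% of all tested genes were at least 2-fold lower in the daughter cells of both lines. WT1, a transcription factor of the same tissues, was higher in both, at 4.10 against 1.34 TPM in Hey and 2.91 against 0.545 TPM in SKOV3. Of the 6 mesothelial markers 5 were tested, and MSLN was the 1 that was at least 2-fold lower in daughter than parental cells of each line. In Hey 2 were higher, WT1 and CALB2 (8.98 against 0.945 TPM), beside 6.31% of all tested genes. In SKOV3 3 were higher, WT1, UPK3B (29.4 against 4.47 TPM) and LRRN4 (11.5 against 3.11 TPM), beside 15.1%. Between the lines limma called UPK3B and LRRN4 higher in SKOV3 than in Hey and 0 lower, beside 14.4% and 6.27% of all genes. Of 8 ovarian carcinoma markers 7 were tested, and limma called 1 higher in SKOV3 (ERBB2) and 1 lower, beside the same 14.4% and 6.27%.

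Of 8 intermediate filament genes related to VIM, 4 were tested, and limma called NES and SYNM higher in SKOV3, beside 14.4% of all genes. LMNB1, a nuclear lamina gene known to drop in senescent cells, stood at 99.6, 12.0 and 154 TPM in Hey parental cells, PGCCs and daughter cells, and at 206, 152 and 150 TPM in SKOV3. Of 8 genes with splicing tied to the ESRP proteins or their partners, all were tested. limma called FGFR2 and ENAH higher and CD44 lower in SKOV3, beside 14.4% and 6.27% of all genes. FGFR2, whose isoforms differ between epithelial and mesenchymal cells, stood at 1.43, 2.63 and 34.1 TPM in SKOV3 parental cells, PGCCs and daughter cells and at 0.0540 TPM or less in Hey. ENAH was at least 2-fold lower in Hey daughter cells than in parental cells, at 1.46 against 11.3 TPM, and at least 2-fold higher in SKOV3 daughter cells, at 103 against 48.1 TPM. Gene sums do not show which isoforms were made. Of the fibroblast markers 2 were tested, and limma called LUM higher and FAP lower in SKOV3, beside 14.4% and 6.27% of all genes. Of the endothelial markers it tested CDH5, which it called lower, beside the same 6.27%.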
